A study of Rattus norvegicus with 8 samples.

Results

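The insulin-like growth factor (IGF) axis was followed here in fetal rat pancreatic islets through 10 genes: the ligands Igf1 and Igf2, the receptor Igf1r, and the binding protein genes Igfbp1 to Igfbp7. The genes were listed by name, and all 10 were found among the 14506 genes that the platform annotation ties to a probe set of their own, each with 1 probe set. Islet RNA came from Sprague-Dawley fetuses at embryonic day 19, and each array carries the pooled islets of 1 litter. According to the labels, 4 dams had a sham operation and 4 had surgery to restrict fetal growth (IUGR, intrauterine growth restriction), both on embryonic day 18. The litter is therefore the replicate, with n = 4 per group, and each litter came from 1 dam. The labels name no transgene and no sort of the islet cells.

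IGF1 and IGF2 are small secreted growth factors that signal through the receptor tyrosine kinase IGF1R, and IGF2 is the more abundant ligand of fetal life. Most of both factors is held by binding proteins, which lengthen their life in the circulation and restrain or localise their action. IGFBP1 is made mainly by the liver, and insulin lowers its transcription through FOXO factors. IGFBP2 is made by many fetal tissues, IGFBP3 is the main carrier in adult blood, IGFBP4 and IGFBP5 are cut by the protease PAPP-A, IGFBP6 prefers IGF2, and IGFBP7 binds IGFs only weakly and is abundant in vessel walls. In fetal organs Igf1 and several of the binding protein genes are known as transcripts of mesenchymal cells.

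The 10 genes lie on 5 chromosomes of the rat assembly GRCr8, and 2 pairs of binding protein genes are neighbours, with no other RefSeq gene lying wholly between them: Igfbp1 with Igfbp3 on chromosome 14, and Igfbp2 with Igfbp5 on chromosome 9. The 250 bases before the RefSeq start of these 4 genes, and of Igfbp6, are shown so that the neighbours can be read side by side and because Igfbp5 and Igfbp6 varied together. All are written in the direction of transcription. The windows are chr14:86261027-86261276 (plus strand) for Igfbp1, chr14:86277945-86278194 (minus strand) for Igfbp3, chr9:81864561-81864810 (plus strand) for Igfbp2, chr9:81914188-81914437 (minus strand) for Igfbp5 and chr7:135154669-135154918 (plus strand) for Igfbp6. Capitals mark matches to the motifs searched.
Igfbp1: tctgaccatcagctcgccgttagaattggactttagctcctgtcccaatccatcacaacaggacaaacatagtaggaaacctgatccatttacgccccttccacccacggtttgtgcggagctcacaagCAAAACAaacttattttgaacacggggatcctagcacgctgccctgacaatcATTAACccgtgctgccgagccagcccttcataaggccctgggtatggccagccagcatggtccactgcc
Igfbp3: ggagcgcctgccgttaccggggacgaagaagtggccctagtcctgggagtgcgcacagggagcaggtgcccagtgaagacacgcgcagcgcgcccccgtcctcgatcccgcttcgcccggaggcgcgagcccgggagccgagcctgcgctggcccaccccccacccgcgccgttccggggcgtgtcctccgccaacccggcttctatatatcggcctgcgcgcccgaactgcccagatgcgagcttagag
Igfbp2: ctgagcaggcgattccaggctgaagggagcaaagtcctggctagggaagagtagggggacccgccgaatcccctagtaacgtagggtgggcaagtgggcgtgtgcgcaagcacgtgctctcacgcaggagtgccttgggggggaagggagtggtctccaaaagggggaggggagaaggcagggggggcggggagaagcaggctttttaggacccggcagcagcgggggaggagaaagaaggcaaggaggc
Igfbp5: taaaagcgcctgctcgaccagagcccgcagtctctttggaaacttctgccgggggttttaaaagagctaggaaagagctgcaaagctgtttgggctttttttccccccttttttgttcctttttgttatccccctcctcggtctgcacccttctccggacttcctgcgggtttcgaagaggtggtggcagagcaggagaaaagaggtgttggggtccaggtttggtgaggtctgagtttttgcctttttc
Igfbp6: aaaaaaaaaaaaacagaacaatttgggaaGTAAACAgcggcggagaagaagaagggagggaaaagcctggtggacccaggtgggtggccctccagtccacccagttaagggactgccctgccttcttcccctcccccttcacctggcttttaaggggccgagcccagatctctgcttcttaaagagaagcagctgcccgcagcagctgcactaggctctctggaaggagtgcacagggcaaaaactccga

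A set of 4 motifs was searched on both strands, chosen with the array values known. The box that places the start of transcription was read as TATAAA. Part of a site for the liver factor HNF1 was read as GTTAAT. The core of a FOXO site was read as GTAAACA. An arm of the insulin response elements, to which FOXO factors also bind, was read as CAAAACA. No match overlapped another in these windows. The Igfbp1 window held the insulin response element arm from -121 to -115 and the HNF1 motif, read on the other strand, from -69 to -64, counting back from -1 at the last base before the start. Of all 33469 promoter windows of this length, 5.46% held the arm and 6.45% the HNF1 motif. The windows of Igfbp2, Igfbp3 and Igfbp5 held none of the 4 motifs. That of Igfbp6 held the FOXO core from -221 to -215, as did 3.21% of all windows, and TATAAA, found in 12.9% of all windows, was in none of the 5. Among the other members the arm lay in the Igf1 window and TATAAA in that of Igfbp4. GC content was 52.8% for Igfbp1, 71.6% for Igfbp3, 64% for Igfbp2, 51.6% for Igfbp5 and 54.8% for Igfbp6, against a median of 51.2% over all windows. A match describes letters, not a bound site.

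The values are log2 expression, and the number of arrays limits their precision. The arrays did not share 1 signal range: sham replicates 2, 3 and 4 had an interquartile range over genes of 3.06 to 3.23, against 3.53 to 3.63 on the other 5. Sham replicate 4 stood apart in its mean over 13 islet endocrine markers (12.20, against 10.67 to 11.58 on the other 7 arrays), and IUGR replicate 4 in its mean over 10 endothelial markers (10.52, against 10.88 to 11.59). Defining islet genes were bright on all arrays, with Ins1 from 13.15 to 14.01 and Gcg from 13.33 to 13.94. The liver genes Alb (11.69 to 13.98) and Afp (11.39 to 13.59) were bright on all arrays too. Levels are compared within a gene only, since probe sets differ in brightness per transcript.

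The comparison of IUGR with sham litters asks which of these genes differ 1 day after surgery. None of the 10 passed the threshold of 0.05 on the limma p-value adjusted over all genes (lowest adjusted p = 0.080). In all, 36 of 14506 genes passed, which is 0.248% (34 or 0.234% higher and 2 or 0.0138% lower in IUGR). That count was 2738 without sham replicate 1, 157 without sham replicate 4, 2 without IUGR replicate 4, and 0 when the litter left out was number 2 or 3 of the sham group or number 1 or 3 of the IUGR group. At an unadjusted limma p under 0.05 there were 3 of the 10, against 26.1% of all genes. The groups did not overlap for 2 of the 10, Igfbp2 (higher) and Igfbp6 (lower), against 15.5% of all genes (10% higher and 5.45% lower). The differences lay between -1.12 and 2.40, with 4 positive and 6 negative and a median of -0.14, while the median over all genes was 0.04. The shares of members are near those of genes at large, and the single genes follow by role.

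**Figure D1:**
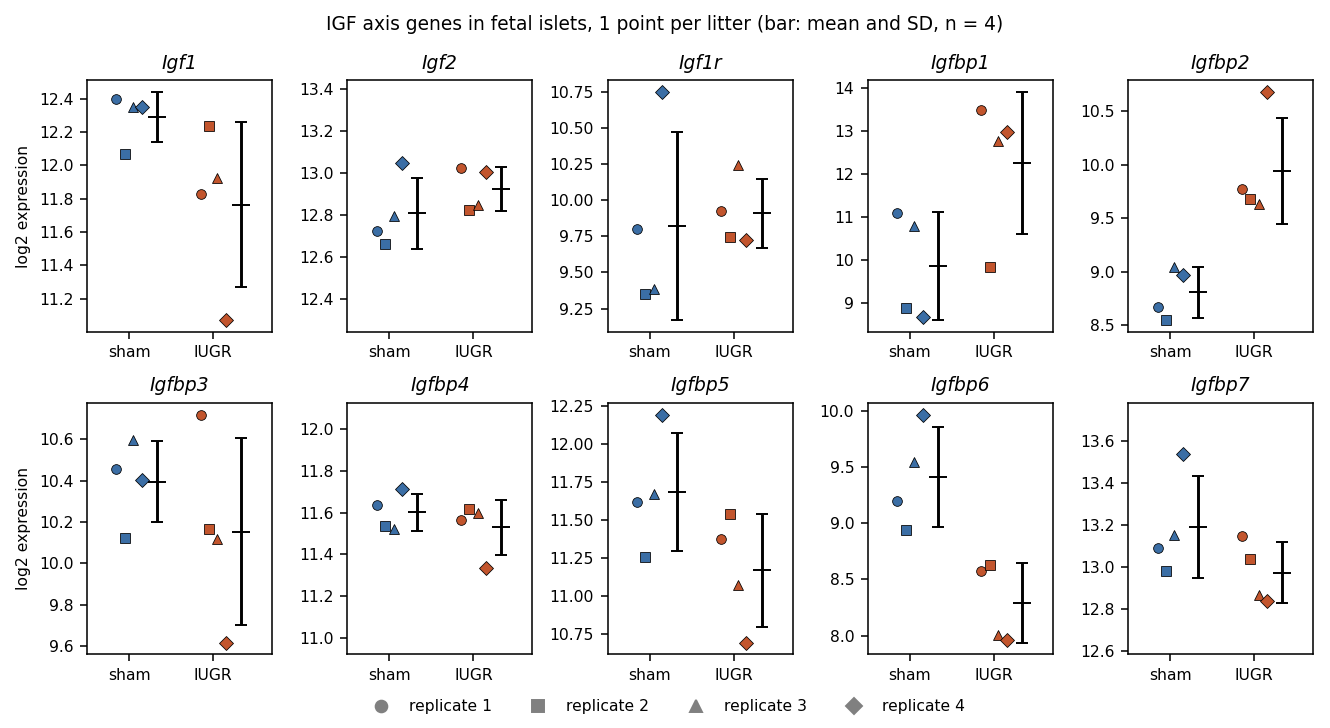
Log2 expression (vertical axis, a scale of its own in each panel) of the 10 IGF axis genes in 4 sham and 4 IUGR litters, with 1 point per litter, a marker shape per replicate number, and bars for the mean and SD. Igfbp2 and Igfbp6 are the genes whose groups do not overlap, and in Igfbp1 the IUGR litter at 9.83 lies among the sham litters.

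Of the ligands, Igf2 showed the smaller spread. It was 12.73, 12.66, 12.80 and 13.05 in sham replicates 1 to 4 and 13.02, 12.83, 12.85 and 13.01 in IUGR replicates 1 to 4. The highest single value belonged to sham replicate 4, and the whole span of 8 litters was 0.38. The difference was 0.12 ± 0.11 (SE, n = 4 each) with a 95% interval of -0.13 to 0.36 (adjusted p = 0.490), and it was -0.11 after median centring of the arrays. The brightest values on the arrays were 14.15 to 14.44.

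Igf1 was 12.40, 12.07, 12.35 and 12.35 in the sham litters and 11.83, 12.23, 11.92 and 11.07 in the IUGR litters. The IUGR litters 1, 3 and 4 lay below every sham litter, and IUGR replicate 2 lay inside the sham range. The difference was -0.53 ± 0.23 (SE), a 95% interval of -1.05 to 0.00 (adjusted p = 0.192). IUGR replicate 4 carried much of it, since without that litter the difference was -0.30.

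Igf1r, the receptor that both ligands use, was 9.80, 9.35, 9.38 and 10.75 in the sham litters and 9.93, 9.75, 10.24 and 9.73 in the IUGR litters. Sham replicate 4 was the highest of the 8, and it is also the litter with the highest islet endocrine mean. The part of that mean in the Igf1r value was not tested. The difference was 0.09 ± 0.30 (SE, 95% interval -0.61 to 0.79, adjusted p = 0.868), and 0.40 without sham replicate 4. Array weights gave 0.53, past the threshold (limma adjusted p = 0.027, where 6358 of all genes passed). That fit gave sham replicate 3 a weight of 7.82 and the other sham litters 0.20 to 1.03, so it rests largely on 1 sham litter. The fits with the liver or mesenchyme mean gave 0.48 and 0.52. Quantile normalization, median centring and cyclic loess gave -0.14 to -0.11, so that no direction can be given.

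Among the binding proteins, Igfbp1 had the largest difference and the largest spread. It was 11.10, 8.89, 10.78 and 8.66 in the sham litters and 13.49, 9.83, 12.76 and 12.97 in the IUGR litters. The IUGR litters 1, 3 and 4 lay above all sham litters, while IUGR replicate 2 lay between the low and the high pair of sham litters. The difference was 2.40 ± 0.89 (SE), a ratio of 5.29 on the linear scale, with a 95% interval of 0.36 to 4.45 (adjusted p = 0.151). It was 3.22 without IUGR replicate 2, but 1.41 with array weights and 1.16 ± 1.47 (SE) on the 5 arrays of wider signal range, which hold a single sham litter.

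Igfbp2 separated the groups. It was 8.67, 8.55, 9.04 and 8.97 in the sham litters and 9.77, 9.68, 9.63 and 10.68 in the IUGR litters, so that all 4 IUGR litters were above all 4 sham litters. The difference was 1.13 ± 0.24 (SE), a 2.19-fold ratio, with a 95% interval of 0.57 to 1.69 (adjusted p = 0.080, place 273 of 14506 by p). IUGR replicate 4 was the highest, and without it the difference was 0.89. The gene passed the threshold without sham replicate 1 (limma adjusted p = 0.040) and with array weights (adjusted p = 0.0068), fits in which 2738 and 6358 of all genes passed. With array weights the sham side rests largely on sham replicate 3.

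Igfbp6 separated the groups in the other direction. It was 9.20, 8.94, 9.54 and 9.97 in the sham litters and 8.57, 8.63, 8.00 and 7.96 in the IUGR litters, so that all 4 IUGR litters were below all 4 sham litters. The difference was -1.12 ± 0.25 (SE), an IUGR level of 0.459 times the sham level, with a 95% interval of -1.70 to -0.54 (adjusted p = 0.088, place 331). It passed under the same 2 alternatives as Igfbp2, with adjusted p = 0.032 without sham replicate 1 and 0.0025 with array weights.

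Igfbp5 was 11.62, 11.25, 11.67 and 12.19 in the sham litters and 11.38, 11.54, 11.08 and 10.69 in the IUGR litters. The groups overlapped, with sham replicate 4 highest and IUGR replicate 4 lowest, and the difference was -0.51 ± 0.24 (SE, 95% interval -1.06 to 0.03, adjusted p = 0.211). Igfbp7 ran from 12.98 to 13.54 in the sham and from 12.84 to 13.15 in the IUGR litters, a difference of -0.22 ± 0.14 (SE, adjusted p = 0.330). Sham replicate 4 was again highest, and without it the Igfbp7 difference was -0.10, while after median centring it was -0.45.

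Igfbp3 and Igfbp4 showed overlapping groups. Igfbp3 was 10.45, 10.12, 10.59 and 10.40 in the sham litters and 10.72, 10.16, 10.12 and 9.62 in the IUGR litters. The IUGR litters held both the highest and the lowest of the 8 values, and the difference was -0.24 ± 0.22 (SE, adjusted p = 0.494). It was -0.06 without IUGR replicate 4, -0.43 without IUGR replicate 1 and -0.47 after median centring. Igfbp4 stayed between 11.33 and 11.71 on all 8 arrays, with a difference of -0.07 ± 0.09 (SE, 95% interval -0.29 to 0.14, adjusted p = 0.634), and -0.30 after median centring.

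**Figure D2:**
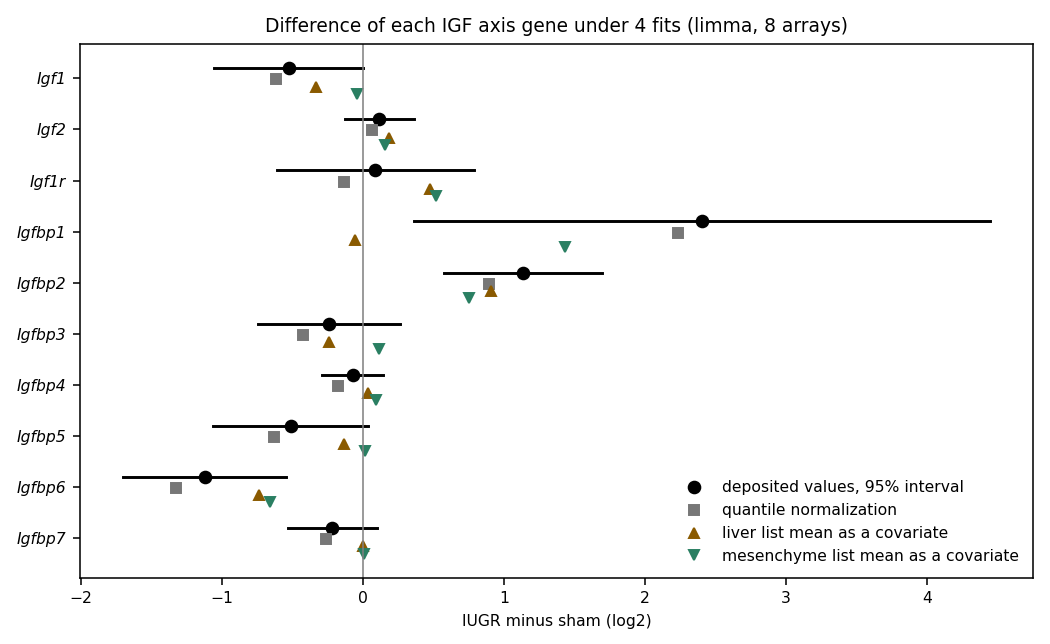
Difference of IUGR from sham (horizontal axis, log2) for the 10 genes, from the deposited values with the 95% interval of the limma fit, after quantile normalization, and with the liver or the mesenchyme list mean as a covariate. Adjusted for the liver mean the Igfbp1 difference is -0.05, and with the mesenchyme list mean those of Igfbp5 and Igfbp7 are 0.02 and 0.01.

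The neighbouring genes are given side by side as a description, since the pairs were chosen after their values had been seen. On chromosome 14, Igfbp1 differed by 2.40 and Igfbp3 by -0.24, which is 2.64 apart, and between 2.23 and 3.46 apart when 1 litter was left out. On chromosome 9, Igfbp2 differed by 1.13 and Igfbp5 by -0.51, which is 1.65 apart, and between 1.24 and 1.86 apart when 1 litter was left out.

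Mean log2 levels of other cell types' marker lists differed between the groups, none past the threshold after adjustment. They are given here because fetal liver and mesenchyme both make IGF axis transcripts. Fewer cells of a type and less RNA per cell cannot be told apart in pooled islets. The mean over 20 genes of liver plasma proteins was 11.46, 9.48, 10.92 and 8.94 in the sham litters and 12.06, 11.28, 12.30 and 12.77 in the IUGR litters, with 20 of 20 genes higher and a difference of 1.90 (exact permutation p = 0.0571). The mean over 22 mesenchyme genes, such as collagens and Pdgfra, was 11.61, 11.51, 11.60 and 12.02 in the sham litters and 11.39, 11.48, 11.30 and 10.63 in the IUGR litters, with 21 of 22 genes lower and a difference of -0.49 (exact permutation p = 0.0286). Without IUGR replicate 4 the mesenchyme difference was -0.30 (exact permutation p = 0.0571). Other list means differed as well: 8 of 8 duct genes and 11 of 11 acinar genes were higher (list means 0.88 and 0.97 higher, exact permutation p = 0.0286 and 0.0571), while 11 of 11 macrophage genes, 7 of 7 erythroid genes and 10 of 10 endothelial genes were lower (list means -0.57, -0.67 and -0.24, exact permutation p = 0.143, 0.114 and 0.371). The islet endocrine mean differed by 0.18 (exact permutation p = 0.743). Of all 14506 genes, 7989 were higher and 6517 lower in IUGR. Genes of a list were read on the same 8 arrays, so the counts of direction are not independent tests. Adjusted over the 8 marker lists, the lowest exact permutation p was 0.114. With 70 arrangements no exact permutation p can lie below 0.0286, the value of the mesenchyme and duct lists. A list could therefore pass after adjustment only if several others stood at that floor too. Among single duct genes 1 of 8 passed over all genes, against 0.248% of all genes. It was Krt8, with a difference of 1.07 (limma adjusted p = 0.0431). The Krt8 call was lost after quantile normalization or cyclic loess, where no gene at all passed. The part of the duct, acinar, macrophage, erythroid and endothelial lists in the IGF values was not tested. The liver and mesenchyme list means ran against each other over the 8 arrays, with a Pearson r of -0.79 and a Spearman rho of -0.83 (exact permutation p = 0.011 and 0.015).

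Each gene was set against both list means, 20 relations in all. Of these, 7 passed after adjustment, 2 with the liver and 5 with the mesenchyme list. The share of all genes related to these means was not computed, so the counts do not set the members apart. No member belongs to either list. A group of 4 is too small for a correlation, so the relation was computed again on deviations from the group means, and 2 of the 20 passed there, Igfbp5 and Igfbp6 with the mesenchyme list.

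Igfbp1 followed the liver list mean. Pearson r was 0.92 and Spearman rho 0.90 (exact permutation p = 0.0014 and 0.0046, adjusted p = 0.0077 and 0.029). Sham replicates 2 and 4 (8.89 and 8.66) and IUGR replicate 2 (9.83) had the lowest liver means of their groups and the lowest Igfbp1 values. IUGR replicate 1 went against the order, with the highest Igfbp1 value of the 8 litters (13.49) and only the third liver mean (12.06). Without the arrays farthest from the median, sham replicates 2 and 4, r was 0.84 (exact permutation p = 0.063, not past the threshold), and on deviations from group means it was 0.83 (exact permutation p = 0.024, adjusted p = 0.081). Without IUGR replicate 4, r was 0.90 and its adjusted exact permutation p 0.069. With the liver mean added to the fit, the IUGR difference of Igfbp1 was -0.05 ± 0.80 (SE), against 2.40 ± 0.89 without it. The liver mean itself nearly separates the groups, so the covariate and the group cannot be told apart in this fit.

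**Figure D3:**
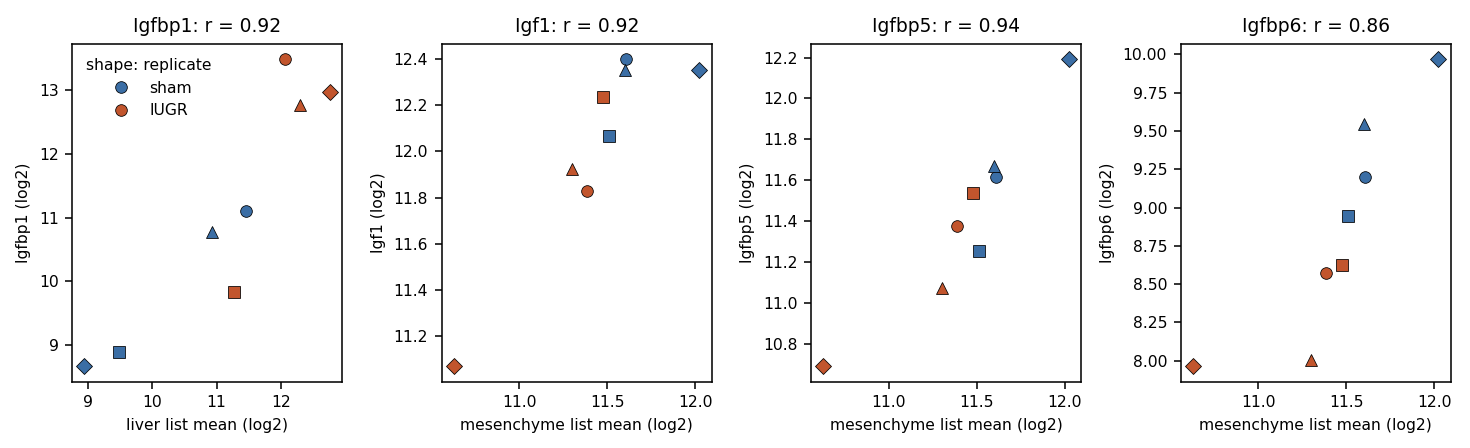
Log2 expression of Igfbp1 against the liver list mean, and of Igf1, Igfbp5 and Igfbp6 against the mesenchyme list mean, with 1 point per litter, colours for the groups and marker shapes for replicate numbers. Pearson r over the 8 arrays is 0.92, 0.92, 0.94 and 0.86, and IUGR replicate 4 and sham replicate 4 lie at the ends of the mesenchyme axis.

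Igf1, Igfbp5 and Igfbp6 followed the mesenchyme list mean. For Igfbp5, r was 0.94 and rho 0.90 (exact permutation p = 0.0010 and 0.0046, adjusted p = 0.0077 and 0.029), r was 0.84 without the farthest arrays, IUGR replicate 4 and sham replicate 4 (adjusted exact permutation p = 0.139, not past the threshold), and 0.91 on deviations from group means (exact permutation p = 0.0035, adjusted p = 0.035). For Igfbp6, r was 0.86 and rho 0.98 (exact permutation p = 0.0014 and 0.00040, adjusted p = 0.0077 and 0.0079), r was 0.95 without those arrays and 0.75 on deviations (exact permutation p = 0.0035, adjusted p = 0.035). For Igf1, r was 0.92 and rho 0.88 (exact permutation p = 0.0015 and 0.0072, adjusted p = 0.0077 and 0.029), r was 0.89 without those arrays (adjusted exact permutation p = 0.10, not past the threshold) and 0.86 on deviations (exact permutation p = 0.024, adjusted p = 0.081). Without IUGR replicate 4 the r of Igf1 was 0.71 (adjusted exact permutation p = 0.187), while that of Igfbp6 was 0.92 (0.024). With the mesenchyme mean as a covariate the IUGR difference was 0.02 ± 0.16 for Igfbp5, -0.04 ± 0.18 for Igf1 and -0.66 ± 0.24 for Igfbp6 (SE). The mesenchyme mean separates the groups completely, from 10.63 to 11.48 in IUGR and from 11.51 to 12.02 in sham litters, so the covariate and the group cannot be told apart in these fits.

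The other relations past the threshold were less even. Igfbp4 had an r of 0.89 with the mesenchyme mean but a rho of 0.60, and without IUGR replicate 4 and sham replicate 4 its r was -0.12, so that the relation over 8 arrays rests on those litters. Igfbp2 ran against the mesenchyme mean with an r of -0.81 (exact permutation p = 0.017, adjusted p = 0.04996), -0.73 without the same arrays, and -0.51 without IUGR replicate 4 alone, and it held only without sham replicate 2 or 4. Its r with the liver mean was 0.75 over all arrays (adjusted exact permutation p = 0.070) and 0.29 on deviations from group means, and the Igfbp2 difference was 0.91 ± 0.38 with the liver mean and 0.75 ± 0.27 with the mesenchyme mean as a covariate (SE). Igfbp6 ran against the liver mean (r = -0.81, adjusted exact permutation p = 0.04996, -0.48 on deviations), a call lost without sham replicate 1, sham replicate 4 or any IUGR litter. With the liver mean, Igfbp4 (r = -0.55) and Igfbp5 (-0.72) did not pass on the deposited values. Both passed after quantile normalization (-0.81 and -0.80), median centring (-0.95 and -0.85) and cyclic loess (-0.76 and -0.77). On deviations from group means their r was -0.47 and -0.50, not past the threshold. For Igf2 and Igf1r, r with the 2 means lay between -0.18 and 0.35, and the signs turned when arrays were left out or rescaled.

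**Figure D4:**
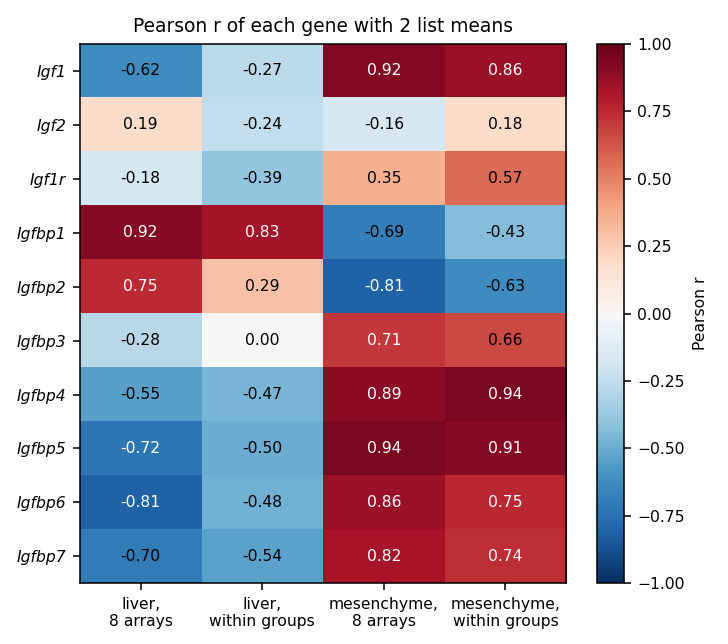
Pearson r of each of the 10 genes with the liver and the mesenchyme list mean, over the 8 arrays and on deviations from the group means (within groups), on a colour scale from -1 to 1. With the mesenchyme mean, Igf1, Igfbp4 and Igfbp5 have r of 0.86 or more in both columns. Within groups only Igfbp5 and Igfbp6 with that mean pass the threshold after adjustment (r of 0.91 and 0.75). The liver r of Igfbp2 is 0.75 over all arrays and 0.29 within groups.

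Among the members themselves, 3 of 45 pairs passed after adjustment, and they join 3 genes. Pairs of genes outside the members were not counted, so it is not known whether this share is unusual on these arrays. Igfbp5 and Igfbp7 had an r of 0.93, Igfbp5 and Igfbp6 an r of 0.91, and Igfbp6 and Igfbp7 an r of 0.87 (adjusted exact permutation p = 0.027, 0.027 and 0.030), with rho of 0.93, 0.93 and 0.83 (adjusted exact permutation p = 0.0502, 0.0502 and 0.115). On deviations from group means r was 0.90, 0.94 and 0.94 in that order (adjusted exact permutation p = 0.208, 0.078 and 0.117). With 576 pairings within groups the smallest possible exact permutation p is 0.0017, the value of Igfbp5 with Igfbp6. Adjusted over 45 pairs this floor is 0.078, so no pair could have passed alone. Without the arrays farthest from the median of the first gene r was 0.82, 0.82 and 0.71. The count of pairs was 5 without IUGR replicate 1, 1 without sham replicate 4, and 0 when the litter left out was sham number 1 or 3 or IUGR number 3 or 4. Igf1 and Igfbp2 ran in opposite directions with an r of -0.84 (rho -0.69, adjusted exact permutation p = 0.086 and 0.240), and -0.37 without the arrays farthest from the Igf1 median.

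Genes with the most similar pattern over the 8 arrays were sought among all genes, as a description. For Igfbp1 they were Eif4ebp2, a translation repressor, the serpin gene Serpina3n and the transcription factor gene Cebpb (r of 0.97 each), with IUGR differences of 0.12, 1.87 and 0.30. For Igf1 they were Nbl1, P3h3 and Fstl1 (r of 0.99, 0.99 and 0.98), and Fstl1 is 1 of the 22 genes of the mesenchyme list. For Igfbp2 they were Rogdi, Syt15 and Met, the receptor of hepatocyte growth factor (r of 0.99, 0.99 and 0.98). For Igfbp5 they were Nfix, Arhgap20 and Gfra2 (r of 0.99, 0.98 and 0.97), and for Igfbp6 Tspan11, Fmo2 and Trim69 (r of 0.98, 0.98 and 0.96).

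Beyond the 10 genes, 46 of 58 listed genes that carry, limit or transmit the IGF signal were measured, and none of the 46 passed over all genes (limma, lowest adjusted p = 0.087), while 8 were at an unadjusted p under 0.05, against 26.1% of all genes. Their median difference was 0.09, with 29 higher and 17 lower. The groups did not overlap for 5, all higher in IUGR: Grb14, Ghr, Igfbpl1, Pik3cb and Igf2bp1. Of all genes 15.5% did not overlap (10% higher), so neither count sets the pathway apart.

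Among 11 related receptors and adaptors, Grb14, an adaptor that inhibits the insulin receptor, was 7.43, 7.71, 7.59 and 7.20 in the sham litters and 8.30, 8.14, 8.75 and 9.34 in the IUGR litters. All IUGR litters lay above all sham litters, and the difference was 1.15 ± 0.26 (SE, adjusted p = 0.087). The insulin receptor gene Insr differed by 0.63 ± 0.21 (SE, limma adjusted p = 0.139), with 3 of 4 IUGR litters above all sham litters, and by 0.40 after median centring. Irs1, next by p, went the other way by -0.47 ± 0.16 (SE, limma adjusted p = 0.140), with 3 of 4 IUGR litters below all sham litters. Of the 11 genes 8 were higher and 3 lower.

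In the growth hormone arm, with 6 genes, the growth hormone receptor gene Ghr was 11.44, 11.27, 11.27 and 11.56 in the sham litters and 11.92, 11.63, 11.77 and 11.79 in the IUGR litters, a difference of 0.39 ± 0.10 (SE, adjusted p = 0.109) that was 0.16 after median centring. Socs2, which restrains growth hormone signalling, differed by -0.32 ± 0.20 (SE, adjusted p = 0.331), and by 0.07 with array weights. On the deposited values all 4 IUGR litters had more Ghr than any sham litter.

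Of 5 genes listed as regulators of Igf2 expression, Igf2bp1 encodes an RNA-binding protein of fetal tissues. Igf2bp1 ran from 9.33 to 10.19 in the sham and from 10.34 to 10.72 in the IUGR litters. Its difference was 0.63 ± 0.19 (SE, limma adjusted p = 0.128), and 0.40 after median centring. Plagl1, an imprinted transcription factor gene, differed by -0.40 ± 0.16 (SE, adjusted p = 0.172), and by -0.63 after median centring. Of 8 genes listed under clearance, proteases and their inhibitors, Igfbpl1 differed by 0.40 ± 0.12 (SE, limma adjusted p = 0.128). Kazald1 differed by -0.87 ± 0.81 (SE, limma adjusted p = 0.500). The class is a list heading and does not give the role of these 2 genes. The Igfbpl1 difference was 0.17 after quantile normalization or median centring. That of Kazald1 was -0.34 without IUGR replicate 1, -1.45 without IUGR replicate 3 and -1.78 on the arrays of wider range. Of 16 kinases and other signalling genes, Pik3cb, a catalytic subunit of PI 3-kinase, differed by 0.38 ± 0.12 (adjusted p = 0.133) and its regulatory partner Pik3r1 by -0.21 ± 0.11 (SE, adjusted p = 0.255). The Pik3cb difference was 0.14 after quantile normalization, 0.15 after median centring, 0.19 after cyclic loess and 0.095 on the arrays of wider range. That of Pik3r1 was -0.44 after median centring and -0.023 with array weights. The remaining signalling genes lay between the kinase gene Akt2 (-0.15) and the kinase gene Rps6kb1 (0.26).

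**Figure D5:**
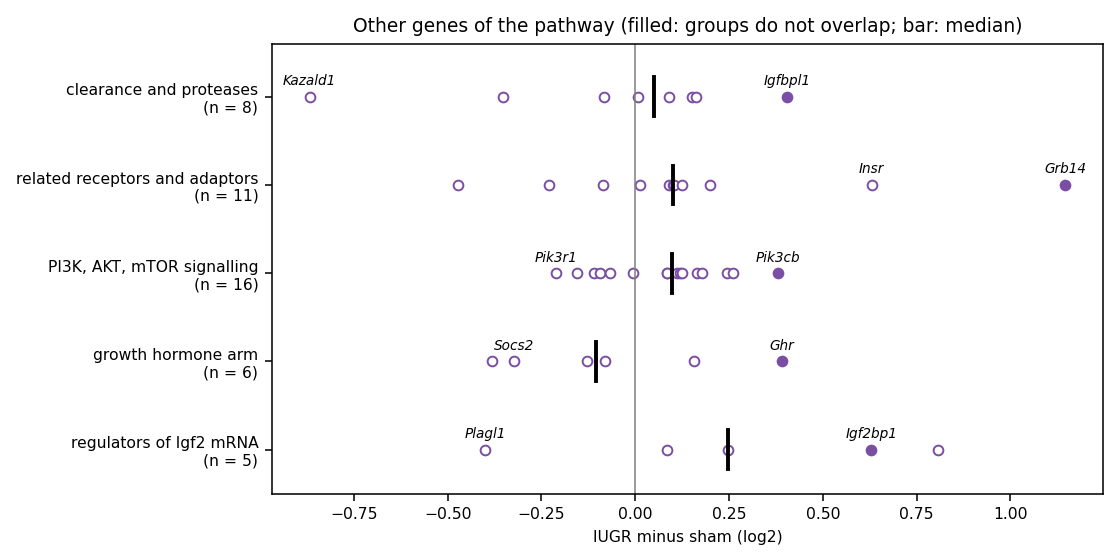
Difference of IUGR from sham (horizontal axis, log2) for 46 further genes of the pathway in 5 classes, with 1 point per gene, filled where the groups do not overlap, and a bar for the class median. Grb14 lies farthest to the right at 1.15, and the class medians lie between -0.11 and 0.25.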

How the data were processed

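Gene expression was measured on 8 arrays, 1 per litter. The deposited values are log2 expression, for which the submitters' processing notes name RMA, with no version in the sources used here. The value range differs between arrays, which can shift differences. The table held 29214 probe sets. The platform annotation gave 1 gene for 15310, several for 323 and none for 13581, and 15279 of the first matched a current RefSeq gene identifier. The brightest probe set stood for a gene with several.

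The deposited values were tested in limma 3.58.1 under R 4.3.3 with lmFit, eBayes and a term for the group alone, checked on simulated data, with Benjamini-Hochberg adjustment over 14506 genes and a threshold of 0.05. Standard errors and intervals come from the moderated fit. List means and correlations had exact two-sided permutation tests on the absolute statistic (70 arrangements, 40320 pairings, or 576 pairings within groups), each family adjusted by Benjamini-Hochberg. Alternatives were 3 scalings, array weights, a replicate block, dropping the dimmest 30% of genes, a prior with trend, other uses of probe sets, 2 covariates, the arrays of wider range, and each litter left out. All members were named, with the 2 smallest p-values of each pathway class and the 3 most similar genes. Similar genes are printed for 5 members. Of the pathway genes, Irs1, Akt2 and Rps6kb1 were named besides. The members and lists were chosen with earlier results of these data known. Promoter sequences are RefSeq's (GRCr8), which gave a window for all 10 members. Figures were drawn with matplotlib 3.10.9.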

Additional observations from a re-analysis of the deposited data

Results flagged for a closer look

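Within groups of 4 litters, 6 of 56 sets of values held a litter far from the other 3, a gap that chance alone gives in about 1 of 20 sets. For Igf1, sham replicate 2 lay low at 12.07 against 12.35 to 12.40 in the other sham litters. For Igfbp2, IUGR replicate 4 lay high at 10.68 against 9.63 to 9.77, and for Pik3cb the same litter lay at 9.13 against 8.97 to 8.98. The endothelial list mean was 10.52 in IUGR replicate 4 against 11.10 to 11.13. Sham replicate 4 had an islet endocrine mean of 12.20 against 10.67 to 10.77, and sham replicate 1 had a macrophage mean of 11.06 against 10.44 to 10.54.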

How the results depend on the processing

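None of the 10 members passed on the deposited values. Array weights gave 3 (Igf1r at 0.53, Igfbp2 and Igfbp6), and fits without 1 litter gave 0 to 2 (2 without sham replicate 1, 0 otherwise). The weights were 7.82 for sham replicate 3 and 0.20 to 1.03 for the other sham litters, so 1 litter carried most of the sham side. For the 46 pathway genes the count of 0 became 13 with array weights and lay between 0 and 3 without 1 litter. The 36 of all genes became 0 after quantile normalization (3305 at an unadjusted limma p under 0.05), cyclic loess (3290), the replicate block (2715), either covariate (679 with the liver and 1420 with the mesenchyme mean) and on the arrays of wider range (1370). They became 1 after median centring, 3 with all probe sets, 59 without dim genes and 6358 with array weights, and lay between 0 and 2738 without 1 litter. Median centring moved the median of all genes from 0.04 to -0.19, and of genes at an unadjusted p under 0.05 the share higher in IUGR was 58.9%; cyclic loess gave 47.6%, quantile normalization 45.9% and median centring 13.4%.

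Under the replicate block no member passed (limma adjusted p from 0.226 to 0.885). Same-numbered litters did not deviate together (r across genes of -0.43, 0.10, -0.12 and -0.13 for numbers 1 to 4). The labels do not say whether the numbers pair the litters, and these correlations cannot decide it. The litters were not treated as pairs.

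Differences that changed sign were those of Igf2 (-0.11 after median centring), Igf1r (-0.13 after quantile normalization, -0.14 after median centring, -0.11 after cyclic loess, and -0.068 to 0.40 without 1 litter), Igfbp1 (-0.054 with the liver mean), Igfbp4 (0.040 with array weights, 0.033 with the liver and 0.092 with the mesenchyme mean), Socs2 (0.073 with array weights, 0.021 with the mesenchyme mean), and, with the mesenchyme mean, Igfbp3 (0.11), Igfbp5 (0.015) and Igfbp7 (0.0096). The cause was not tested. Igfbp2 stayed between 0.75 and 1.27 and Igfbp6 between -1.35 and -0.66 in the 20 alternatives.

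The count of 2 members related to the liver mean became 5 after quantile normalization, 6 after median centring, 4 after cyclic loess, 0 on deviations from group means and 1 without the farthest arrays, and lay between 0 (IUGR replicate 4) and 4 (sham replicate 2) without 1 litter. The count of 5 for the mesenchyme mean became 2 on deviations and 1 without the farthest arrays, and lay between 2 (IUGR replicate 4) and 5 without 1 litter. Correlated member pairs numbered 10 after median centring, 0 on deviations (where no pair could pass alone) and 0 to 5 without 1 litter. Their alternatives, and those for list means and neighbours, were chosen after the data were examined. Without 1 litter the Igfbp1 and Igfbp3 gap lay between 2.23 and 3.46. The mesenchyme difference was -0.30 without IUGR replicate 4 (exact permutation p = 0.0571; 0.0286 to 0.0857 without 1 litter), and the liver difference 2.32 without sham replicate 1 (0.0286; 0.0286 to 0.143).

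Correlations that changed sign were Igf2 with the liver mean (-0.065 after quantile normalization, -0.48 after median centring, -0.030 after cyclic loess, -0.24 on deviations, -0.14 to 0.81 without 1 litter) and with the mesenchyme mean (0.11, 0.45, 0.22, 0.18 in that order, and -0.68 to 0.33). Igf1r turned with the liver mean (0.59 without the farthest arrays, -0.53 to 0.74 without 1 litter) and the mesenchyme mean (-0.76 and -0.23 to 0.47), Igfbp3 with the liver mean (0.0022 on deviations, -0.51 to 0.17 without 1 litter) and Igfbp4 with the mesenchyme mean (-0.12 without the farthest arrays).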
